A study of Mus musculus with 5 samples.

Results

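A group of 10 genes of plasma lipoproteins was followed through an experiment on mouse liver: the apolipoprotein genes Apoa1, Apoa2, Apoa4, Apoa5, Apob, Apoc2, Apoc3 and Apoe, and 2 genes of lipid loading and transfer, Mttp and Pltp. They were listed by name, with earlier results of these data known, and are read by the non-control probes that carry these names. They are 10 of 36870 gene names on the array and are read by 18 of its 56605 probes. The mice were female BALB/c animals, 6 weeks old, injected into the abdominal cavity and examined after 6 hr. One group received vehicle, another TGZ (troglitazone) at 300 mg/kg, and another RGZ (rosiglitazone) at 300 mg/kg. In both remaining groups TGZ or RGZ at that dose was combined with BSO (buthionine sulfoximine, which blocks glutathione synthesis) at 700 mg/kg. No group had BSO alone, so an effect of BSO by itself was not measured. The labels name no transgene or deleted gene in any group, and the title of the study concerns liver injury by troglitazone. Each group was 1 pool of liver RNA from 6 animals, labelled with Cy3 and read on 1 array. A pool hides the spread between its animals, so no difference between groups could be tested here.

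Apolipoproteins are the protein coat of lipoprotein particles, and the liver makes most of them. Apob is the scaffold of very low density lipoprotein (VLDL), and the protein of Mttp loads it with lipid while it is made. Apoa1 and Apoa2 form high density lipoprotein (HDL), Apoc2, Apoc3 and Apoa5 set the rate at which lipoprotein lipase removes triglyceride from particles in blood, and Apoe lets receptors take the remnants up. TGZ and RGZ are thiazolidinediones, ligands of the nuclear receptor PPAR gamma. They share the thiazolidinedione ring, and troglitazone carries a chroman group like that of vitamin E where rosiglitazone carries an aminopyridine.

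Levels are log2 signals minus the 75th percentile of the same array, so that 0 is the signal of a probe at that percentile. On each array 51.9% to 55.2% of probes passed the software's call of well above background, no spot was saturated, and the 75th percentile of the signal ran from 141.5 with TGZ to 208.4 with RGZ. The intervals given are 95% intervals built from the error that the scanner software attaches to each spot. A typical difference had an SD of 0.20 (log2), and the intervals leave out animals, pools and labelling. The software's multiplicative error is set to 0.1 on every array, and the bright probes of these genes had nearly the same SD. An interval that excludes 0 is thus close to a fixed cutoff on the difference. Replicate spots of a probe had a median SD of 0.041 to 0.043 (log2), which the intervals do not use. The number of arrays limits the precision. The 6 hepatocyte markers Alb, Ttr, Cps1, Serpina1a, Ass1 and Tat were well above background on every array. The intestine makes Apoa4, Apob and Mttp too. Of 5 enterocyte markers, Alpi, Fabp6 and Sis were not well above background on any array and Vil1 on 1, whereas Fabp2 was well above it on all 5, at levels from 6.19 to 6.55 with RGZ highest.

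Every one of the 10 genes had at least 1 probe well above background on all 5 arrays, and so did 17 of the 18 probes. In 7 genes there was more than 1 probe, and the brightest stood for the gene. The 3 probes below read the genes that differed most between groups, and show what was measured. Each is 60 bases of the sense strand with at least 1 frame free of stop codons. They are given in lower case with the mm9 position that the array files state. The Apoa4 probe lies at chr9:46051206-46051266, the Apoa1 probe at chr9:46037921-46037980 and the dimmer of the Apoa5 probes at chr9:46078579-46078638, all on the forward strand.
Apoa4: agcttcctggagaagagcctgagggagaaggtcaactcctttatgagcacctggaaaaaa
Apoa5: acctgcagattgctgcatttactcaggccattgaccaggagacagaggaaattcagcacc
Apoa1: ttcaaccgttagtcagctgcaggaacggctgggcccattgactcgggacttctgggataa

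Apoa4, which encodes a lipid-binding protein of HDL and triglyceride-rich particles, differed most. Its level was 5.44 with vehicle, 6.68 with TGZ, 6.32 with BSO plus TGZ, 5.24 with RGZ and 5.43 with BSO plus RGZ. The TGZ arrays were therefore the high ones, and the RGZ arrays lay at or just under vehicle. With TGZ, Apoa4 was 2.37-fold higher than with vehicle (interval 1.79 to 3.12). With BSO plus TGZ it was 1.84-fold higher (1.40 to 2.43). The log2 differences with RGZ (-0.19, interval -0.59 to 0.20) and BSO plus RGZ (-0.01, interval -0.41 to 0.39) had intervals that include 0. The unscaled signals of its single probe were 8005, 14525, 13588, 7900 and 8245 in the same order. Scaled by 8 spike-in RNAs in place of the 75th percentile, Apoa4 was 1.73-fold higher with TGZ (1.31 to 2.29) and 1.62-fold higher with BSO plus TGZ (1.23 to 2.13). On that scale the median of all genes itself moved by -0.45 in TGZ against vehicle and by -0.19 in BSO plus TGZ against vehicle. In bulk tissue, fewer cells of a type and less RNA per cell cannot be told apart.

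Apoa5, whose protein promotes lipolysis of triglyceride-rich particles, was higher than vehicle in all 4 treated groups with both of its probes. The level of the brighter probe was 8.78 with vehicle, 9.67 with TGZ, 9.41 with BSO plus TGZ, 9.25 with RGZ and 9.33 with BSO plus RGZ. The dimmer probe gave 5.18, 6.28, 6.07, 5.92 and 6.04. Vehicle was thus the lowest array with each probe, and the 4 treated arrays stood closer to one another than to it. The brighter probe was 1.85-fold higher with TGZ (1.40 to 2.44), 1.55-fold with BSO plus TGZ (1.17 to 2.04), 1.38-fold with RGZ (1.05 to 1.82) and 1.46-fold with BSO plus RGZ (1.11 to 1.93). The dimmer probe, in the middle of the transcript, was 2.14-fold higher with TGZ (1.62 to 2.82) and 1.67-fold to 1.84-fold higher in the other treated groups. Under spike-in scaling the brighter probe was still higher in all 4, by 1.36-fold with TGZ (1.03 to 1.79) and 1.60-fold with BSO plus RGZ (1.21 to 2.10).

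**Figure D1:**
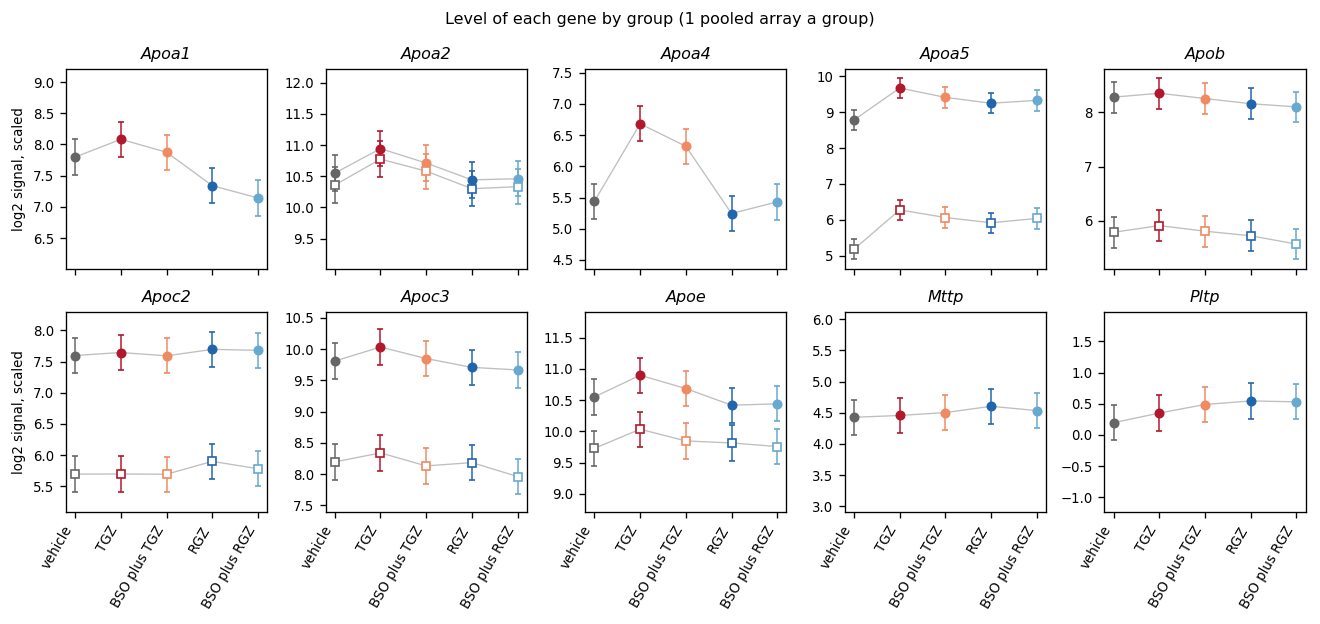
Level of each of the 10 genes (log2 signal scaled by the array's 75th percentile, vertical axes all spanning at least 3.2 log2 units) in the 5 groups, 1 pooled array each. Filled circles are the probe that stands for the gene, open squares the other probes well above background, and bars the 95% interval of spot measurement error of a single array; the dimmest Apoc3 and Mttp probes are left out. Apoa4 is high on both TGZ arrays (6.68 and 6.32), Apoa5 is lowest with vehicle (8.78), and Apoa1 is low on both RGZ arrays (7.34 and 7.14).

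Apoa1, the main protein of HDL, was lower on the arrays of RGZ. Its level was 7.80 with vehicle, 8.08 with TGZ, 7.88 with BSO plus TGZ, 7.34 with RGZ and 7.14 with BSO plus RGZ. Both RGZ arrays lay under vehicle and both TGZ arrays lay over it. The log2 difference from vehicle was -0.46 with RGZ (-0.86 to -0.06) and -0.66 with BSO plus RGZ (-1.06 to -0.26), the latter a 1.58-fold lower level. With TGZ (0.28, interval -0.12 to 0.68) and BSO plus TGZ (0.08, interval -0.32 to 0.48) the intervals include 0, and both differences turned negative under quantile normalization and under spike-in scaling. Under spike-in scaling the interval with RGZ includes 0 (-0.37, interval -0.77 to 0.03), and the difference with BSO plus RGZ was -0.53 (-0.93 to -0.13).

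Apoa2, the other main HDL protein, was among the brightest probes of the array. Its level was 10.55 with vehicle, 10.94 with TGZ, 10.71 with BSO plus TGZ, 10.44 with RGZ and 10.46 with BSO plus RGZ, and its second probe ran from 10.30 to 10.78 with the same array highest. The difference with TGZ was 0.39 (-0.01 to 0.79) with the first probe and 0.42 (0.02 to 0.82) with the second. These values depend on the scaling. Before scaling, the brighter Apoa2 probe gave between 111% and 114% of the signal of the brightest spike-in RNA on each array and its range over the 5 arrays was 0.11 (log2), against 0.50 after scaling. Under quantile normalization and spike-in scaling the difference with TGZ was -0.03 and -0.06.

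Apoe, the receptor ligand on remnants, behaved likewise on the array. Its brighter probe gave 10.55, 10.90, 10.69, 10.42 and 10.44 in the order vehicle, TGZ, BSO plus TGZ, RGZ and BSO plus RGZ. That probe lay at 107% to 112% of the brightest spike-in RNA and had a range of 0.10 before scaling and 0.48 after it. Its difference with TGZ was 0.35 (-0.05 to 0.75) as reported, and -0.10 under each of quantile normalization and spike-in scaling. The second Apoe probe, at 59.0% to 73.0% of the brightest spike-in, ran from 9.73 with vehicle to 10.03 with TGZ. With RGZ the probes differed in sign, at -0.13 and 0.09, both with intervals that include 0. Spike-in RNA does not show whether the signal is proportional to RNA above its brightest spot, and whether the signal of Apoa2 and Apoe is proportional there was not tested.

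**Figure D2:**
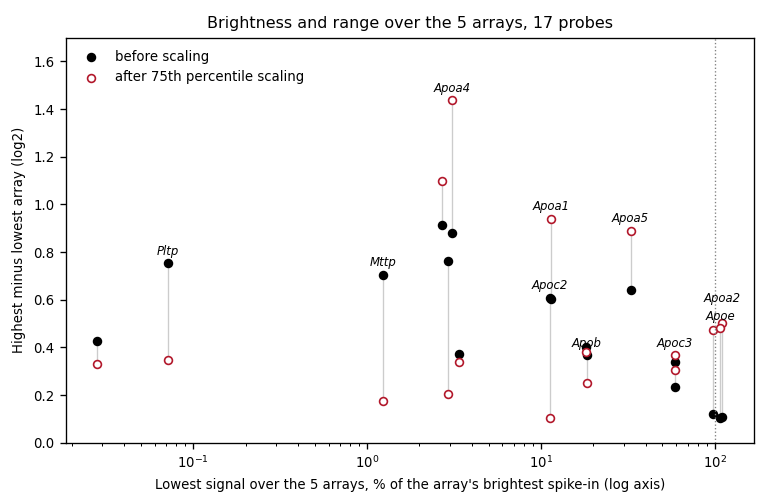
Highest minus lowest array (log2) of each of the 17 probes well above background on all arrays, before scaling (black) and after 75th percentile scaling (open red), against the probe's lowest signal as a percentage of the brightest spike-in RNA of the array (log axis). Names mark the probe that stands for a gene, and the dotted line marks equality with that spike-in. Apoa2 and Apoe, at the right, span 0.11 and 0.10 before scaling and 0.50 and 0.48 after it, whereas Apoa4 spans 0.88 before and 1.44 after.

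The lipase regulators Apoc2 and Apoc3 stayed near vehicle as scaled by the 75th percentile. Apoc2, the activator that lipoprotein lipase needs, had levels of 7.60, 7.65, 7.59, 7.70 and 7.68 in the same order. The whole range of 0.10 is smaller than the measurement error of a difference. Under spike-in scaling Apoc2 was lower with TGZ than with vehicle, by -0.40, with an interval that just excludes 0. The median of all genes on that scale was -0.43, so Apoc2 lay near it. The second Apoc2 probe ran from 5.69 to 5.90 with RGZ highest. Apoc3, which inhibits lipoprotein lipase and remnant uptake, gave 9.81 with vehicle, 10.03 with TGZ, 9.85 with BSO plus TGZ, 9.71 with RGZ and 9.67 with BSO plus RGZ. The differences from vehicle lay between -0.14 and 0.22 and every interval includes 0. Its second probe ran from 7.96 to 8.34, and the other probe, placed upstream in the gene, was much dimmer, from -1.29 with BSO plus RGZ to -0.96 with vehicle.

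The genes of VLDL assembly also stayed near vehicle on that scale. Apob gave 8.28 with vehicle, 8.35 with TGZ, 8.25 with BSO plus TGZ, 8.16 with RGZ and 8.10 with BSO plus RGZ, and its second probe ran from 5.57 to 5.91. The differences from vehicle lay between -0.18 and 0.07 for the brighter probe. Mttp gave 4.43, 4.46, 4.50, 4.60 and 4.54 in the same order, with differences of 0.03 to 0.18. The intervals of both genes include 0 in all 8 comparisons as scaled by the 75th percentile. Under spike-in scaling the intervals of Apob still do, but Mttp was 1.34-fold lower with TGZ than with vehicle (-0.42, interval -0.82 to -0.02). It was 1.61-fold lower with TGZ than with RGZ (-0.69, interval -1.09 to -0.29). The median of all genes on that scale was -0.43 and -0.46 in these comparisons, so Mttp lay near it against vehicle. A second Mttp probe was well above background on 2 arrays only and is not used. Its sequence lies across the start of the gene, from 37 bases before to 22 bases after the RefSeq start.

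Pltp, the phospholipid transfer protein that remodels HDL, was read at a low signal. Its level was 0.20 with vehicle, 0.35 with TGZ, 0.49 with BSO plus TGZ, 0.54 with RGZ and 0.53 with BSO plus RGZ. Vehicle was the lowest array, and the differences of 0.15 to 0.35 all had intervals that include 0. Under spike-in scaling Pltp was 1.36-fold higher with RGZ (1.03 to 1.79) and 1.38-fold with BSO plus RGZ (1.04 to 1.82). Its difference with TGZ turned to -0.30. The median of all genes on that scale was 0.06 with RGZ, 0.08 with BSO plus RGZ and -0.43 with TGZ.

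**Figure D3:**
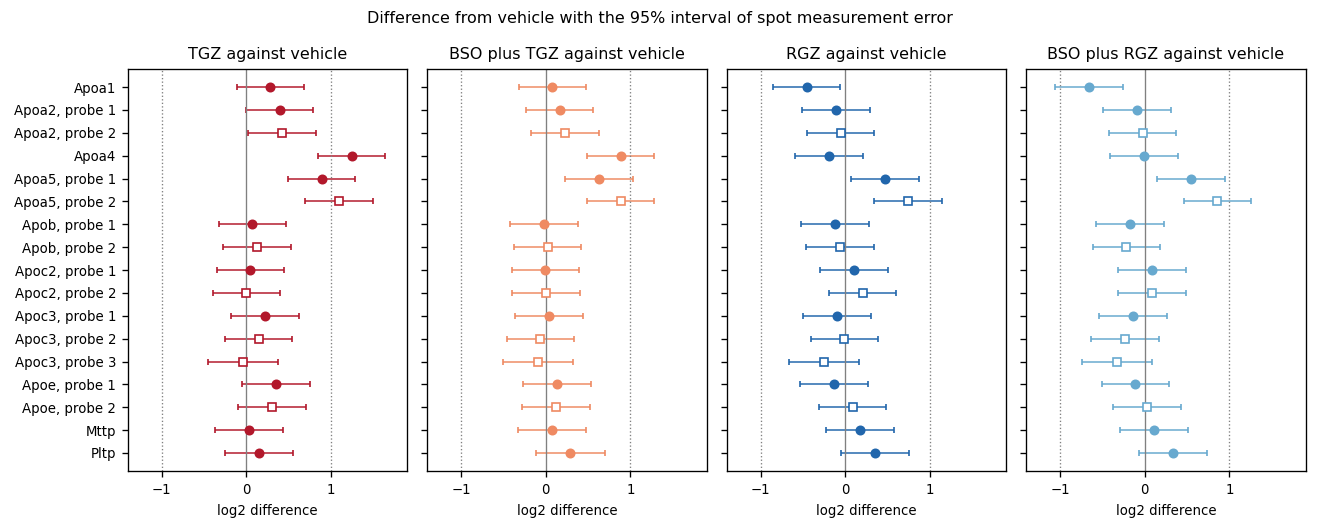
Log2 difference from vehicle of each of the 17 probes well above background on all arrays, 1 panel per treated group, with the 95% interval of spot measurement error. Filled circles are the probes that stand for their genes, open squares the other probes, and dotted lines mark a 2-fold difference. Apoa4 (1.24) is past the line with TGZ, Apoa5 is to the right of 0 in every panel, and Apoa1 is to the left of 0 in both RGZ panels (-0.46 and -0.66).

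Against vehicle, 1 of the 10 genes was at least 2-fold different with TGZ, Apoa4, where 19.6% of all genes with a value were. None was with BSO plus TGZ (14.2% of all genes), RGZ (3.33%) or BSO plus RGZ (6.83%). The share of the 10 genes was thus no larger than that of the array as a whole. The interval excluded 0 for 2 genes in each comparison with vehicle: Apoa4 and Apoa5 in both TGZ groups, and Apoa1 and Apoa5 in both RGZ groups. Under spike-in scaling these were 4 genes with TGZ (Apoa4, Apoa5, Apoc2 and Mttp) and 2 with BSO plus TGZ (Apoa4 and Apoa5). They were 2 with RGZ (Apoa5 and Pltp) and 3 with BSO plus RGZ (Apoa1, Apoa5 and Pltp). The share of all genes on that scale was not computed, and their median was -0.43, -0.22, 0.06 and 0.08 in the same order. Of all genes measured on both arrays, the interval as scaled by the 75th percentile excluded 0 for 45.3% with TGZ, 39.6% with BSO plus TGZ, 20.0% with RGZ and 32.9% with BSO plus RGZ. The median difference of the 10 genes was 0.25 with TGZ, 0.11 with BSO plus TGZ, -0.11 with RGZ and -0.05 with BSO plus RGZ, beside 0.02, -0.03, -0.03 and -0.05 over all genes. All 10 differences were above 0 with TGZ as reported, but 8 of these turned under spike-in scaling, all but those of Apoa4 and Apoa5. All 4 comparisons use the same vehicle array, so an error in it would appear in each.

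The compounds were compared at the same weight dose and time in 2 pairs, without and with BSO. With 1 pool in each group no p-value could be computed or adjusted over the pairs. Apoa4 was 2.71-fold higher with TGZ than with RGZ (2.05 to 3.57), and 1.86-fold higher with BSO plus TGZ than with BSO plus RGZ (1.41 to 2.45). Apoa1 was 1.67-fold higher without BSO (1.27 to 2.21) and 1.66-fold higher with it (1.26 to 2.19). Under spike-in scaling the Apoa4 values were 1.86-fold (1.41 to 2.46) and 1.49-fold (1.13 to 1.97). On that scale the median of all genes moved by -0.53 in TGZ against RGZ and by -0.32 in BSO plus TGZ against BSO plus RGZ. For Apoa1 the spike-in value was 0.20 (log2, interval -0.20 to 0.60) without BSO, which includes 0, and 0.42 (0.02 to 0.82) with it.

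For Apoa5 the compounds were not told apart in a stable way. The log2 difference was 0.42 without BSO (0.02 to 0.82) and 0.08 with BSO (-0.32 to 0.48). The first of these turned to -0.05 under quantile normalization and -0.12 under spike-in scaling. The intervals of TGZ against RGZ also excluded 0 for Apoa2 (0.50) and Apoe (0.48), the probes brighter than the spike-ins, and both were within 0.07 of 0 under spike-in scaling. Apob (0.19, interval -0.21 to 0.59), Apoc2 (-0.05, interval -0.45 to 0.35), Apoc3 (0.33, interval -0.07 to 0.73), Mttp (-0.15, interval -0.55 to 0.25) and Pltp (-0.19, interval -0.60 to 0.21) had intervals that include 0, which do not show that the compounds act alike on them. Under spike-in scaling 3 of these were lower with TGZ than with RGZ: Apoc2 by 1.51-fold (1.14 to 1.99), Mttp by 1.61-fold (1.22 to 2.12) and Pltp by 1.66-fold (1.26 to 2.20). Apoa4 was the 1 gene of 10 past 2-fold between the compounds without BSO, where 18.0% of all genes were, and none was with BSO, where 13.6% were. The interval excluded 0 for 5 of 10 genes without BSO and for 2 (Apoa1 and Apoa4) with it, beside 46.7% and 39.9% of all genes. Under spike-in scaling it did so for 4 without BSO (Apoa4, Apoc2, Mttp and Pltp) and 3 with it (Apoa1, Apoa4 and Apoc2). The share of all genes on that scale was not computed, and their median was -0.46 without BSO and -0.28 with it.

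Between the groups with BSO and those without it, the interval of spot error included 0 for all 10 genes. That does not show that BSO left these genes unchanged. For BSO plus TGZ against TGZ, none of the 10 was at least 2-fold different (2.05% of all genes), no interval excluded 0 (11.4% of all genes) and the differences ran from -0.36 for Apoa4 to 0.14 for Pltp. For BSO plus RGZ against RGZ, again none was past 2-fold (1.24%), no interval excluded 0 (9.75%), and the differences ran from -0.20 for Apoa1 to 0.19 for Apoa4. No interval excluded 0 under spike-in scaling either. The gap between these BSO differences was -0.55 (-1.11 to 0.02) for Apoa4, and -0.32 under spike-in scaling, where the gaps of Pltp (0.38) and Mttp (0.34) were wider. Apoa1 was lower by a like amount in both, at -0.21 and -0.20, though the first was 0.05 under spike-in scaling.

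Differences between genes of an array do not depend on the factor that scales it. Set against Apoa1 on the same arrays, Apoa4 was higher by 0.96 (log2, interval 0.39 to 1.52) with TGZ than with vehicle, and by 0.81 (0.24 to 1.37) with BSO plus TGZ. It was also higher by 0.65 (0.08 to 1.21) with BSO plus RGZ, and the interval with RGZ includes 0 (0.26, interval -0.30 to 0.83). Between BSO plus TGZ and BSO plus RGZ this contrast was 0.16 (-0.41 to 0.72). Set against Apob, Apoa4 was higher by 1.17 (0.61 to 1.74) with TGZ and 0.91 (0.34 to 1.47) with BSO plus TGZ. The intervals with RGZ (-0.07) and BSO plus RGZ (0.17) include 0. Apoa5 against Apob was higher by 0.82 (0.25 to 1.38) with TGZ, 0.66 (0.09 to 1.22) with BSO plus TGZ, 0.59 (0.02 to 1.15) with RGZ and 0.73 (0.16 to 1.29) with BSO plus RGZ. Apoa5 against Apoa1 was higher by 0.61 (0.04 to 1.17) with TGZ, 0.92 (0.36 to 1.49) with RGZ and 1.20 (0.64 to 1.77) with BSO plus RGZ, and the interval with BSO plus TGZ includes 0 (0.55, interval -0.01 to 1.12). For Apoa1 against Apob the intervals include 0 with RGZ (-0.34, interval -0.90 to 0.23) and with BSO plus RGZ (-0.48, interval -1.04 to 0.09). They include 0 too for Apoa1 against Apoc3, at -0.36 (-0.92 to 0.21) with RGZ and -0.51 (-1.08 to 0.05) with BSO plus RGZ. The lower Apoa1 of the RGZ arrays was thus not resolved against these genes of the same arrays. Apoa4 and Apoa5 differed from each other by 0.35 (-0.21 to 0.92) with TGZ, 0.25 (-0.31 to 0.82) with BSO plus TGZ, -0.66 (-1.23 to -0.10) with RGZ and -0.56 (-1.12 to 0.01) with BSO plus RGZ, so that RGZ is the 1 group whose interval excludes 0. Where the interval excludes 0, the ratio of 2 genes differed between arrays beyond the spot error whatever single factor scales each array, which shows unequal change and not which gene held its level.

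By level as scaled by the 75th percentile, the order of the 5 groups had few gaps beyond the error. For Apoa4, TGZ and BSO plus TGZ did not differ beyond it and stood above vehicle, which did not differ from BSO plus RGZ or, after it, RGZ. For Apoa5 the 4 treated groups did not differ from their neighbours in the order, and the lowest of them, RGZ, stood above vehicle. For Apoa1 the gap lay between vehicle and RGZ, with TGZ, BSO plus TGZ and vehicle above it. In the other 7 genes no neighbours in the order differed beyond the error. The highest group stood 2.71-fold over the lowest for Apoa4, 1.92-fold for Apoa1, 1.85-fold for Apoa5, 1.41-fold for Apoa2 and 1.39-fold for Apoe, and between 1.07-fold and 1.29-fold for the others.

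On chromosome 9 Apoa1, Apoc3, Apoa4 and Apoa5 are neighbours, in that order. From the Apoa1 probe, the mm9 positions of the probes put Apoc3 at 3.21 kb, Apoa4 at 13.3 kb and Apoa5 at 41.5 kb, with Apoc3 alone on the reverse strand. The neighbours did not share 1 pattern. With TGZ the differences from vehicle along the cluster were 0.28, 0.22, 1.24 and 0.89. With RGZ they were -0.46, -0.10, -0.19 and 0.47. Apoa4 stood above Apoc3 with TGZ by 1.02 (0.45 to 1.58) within the array, and Apoa5 stood above Apoc3 by 0.67 (0.10 to 1.23). In a second cluster, on chromosome 7, the Apoe and Apoc2 probes lie 24.7 kb apart with Apoc1 and Apoc4 between the genes. Their differences with TGZ were 0.35 for Apoe and 0.05 for Apoc2, and with RGZ -0.13 and 0.10.

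**Figure D4:**
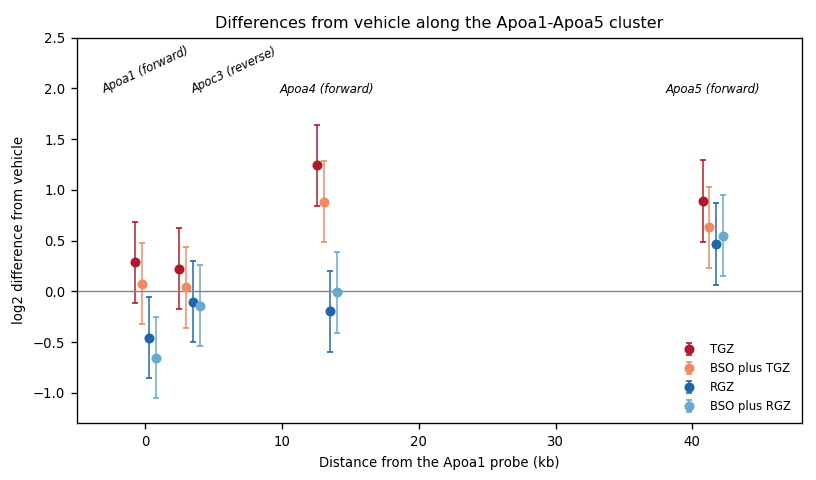
Log2 difference from vehicle of the 4 genes of the chromosome 9 cluster against the distance of their probes from the Apoa1 probe (kb), with the 95% interval of spot measurement error; points of one gene are spread sideways for legibility. The TGZ groups (red) stand highest at Apoa4 (1.24 and 0.88), the RGZ groups (blue) lowest at Apoa1 (-0.46 and -0.66), and all 4 groups are above 0 at Apoa5.

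Promoter sequences are shown for Apoa4 and Apoa5 because these neighbours were both higher with TGZ and only Apoa5 had intervals above 0 with RGZ (0.47 and 0.55, beside -0.19 and -0.01 for Apoa4). RefSeq (GRCm38.p6) held 13 starts for 9 of the 10 genes, and the entry for Apoc3 was not found. The 250 bases before each start were searched on both strands for AGGTCA, a half-site of nuclear receptors, CAAAGTNCA, the core bound by HNF4, and CACGTG, an E-box. The 2 sequences below run 5′ to 3′ and end at the base before the first listed start, with matches in capitals. Apoa4 is chr9:46240594-46240843 and Apoa5 chr9:46268358-46268607, both on the forward strand.
Apoa4: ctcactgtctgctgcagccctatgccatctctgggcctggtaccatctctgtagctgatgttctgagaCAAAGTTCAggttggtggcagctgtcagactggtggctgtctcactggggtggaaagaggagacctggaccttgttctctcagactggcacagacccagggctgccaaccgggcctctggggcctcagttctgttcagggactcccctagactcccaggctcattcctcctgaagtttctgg
Apoa5: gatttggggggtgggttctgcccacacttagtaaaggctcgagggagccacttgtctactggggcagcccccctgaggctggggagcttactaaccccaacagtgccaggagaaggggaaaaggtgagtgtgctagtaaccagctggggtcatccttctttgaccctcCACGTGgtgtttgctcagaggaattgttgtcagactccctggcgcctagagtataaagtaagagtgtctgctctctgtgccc

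Apoa4 held CAAAGTTCA at 182 bases before its start, a match to the HNF4 core that 1.19% of 32851 RefSeq starts hold in the same window. Apoa5 held CACGTG at 82 bases before its first start and 107 before its second, the same site seen from both, and 6.02% of all starts hold it. AGGTCA was found before 1 of the starts of Apoa2 and before Apoc2, as before 14.0% of all starts. The other member promoters searched held none of the 3 words. A match is a description of the letters and not a binding site.

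The wider pathway was described from lists of genes with a role near these 10, and 143 of 144 listed genes matched a name on the array. Among 15 other apolipoprotein genes with a value in TGZ against vehicle, none was at least 2-fold higher and 3 were lower: Apol7a (-4.08), Apol9a (-2.29) and Apol9b (-2.30). Apol9a and Apol9b are near-identical copies whose probes may share signal. The list's median was 0.14. With RGZ, Saa4, a constitutive HDL protein, was higher (1.61) and Apol7a lower (-1.05), and the median was -0.17. Of 17 genes of HDL formation and remodelling, Saa1 (6.85), Saa2 (6.71) and the lipid exporter Abca1 (2.28) were higher with TGZ. The exporter Abcg1 (-1.08) was lower, and Pcolce2 was at least 3.78-fold lower. With RGZ, Saa1 (6.41), Saa2 (6.21) and Gpld1 (1.32) were higher and none was lower. The medians were 0.07 with TGZ and 0.14 with RGZ.

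Among 35 genes of VLDL assembly, lipidation and secretion, Apob and Mttp apart, Cidec, a lipid droplet protein, was higher with TGZ (5.74) and with RGZ (1.34). Soat2, which esterifies cholesterol for VLDL, was higher with TGZ (1.19). Lower with TGZ were Svip (-1.46), Smlr1 (-1.20), the lysosomal lipase Lipa (-1.16) and Tmem41b (-1.08), and none was lower with RGZ. The medians were -0.07 and -0.01. Among 13 genes of lipoprotein lipase and its regulators, Angptl4, a lipase inhibitor, was higher with TGZ (1.07) and Angptl8 lower (-3.93). None was past 2-fold with RGZ, and the medians were 0.25 and 0.28. Angptl8 was also higher with BSO plus TGZ than with TGZ (2.42).

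Among 19 receptors and uptake genes, which take up particles through Apoe and Apob, Sorl1 (1.87) and Lrp8 (1.01) were higher with TGZ. None was at least 2-fold higher with RGZ. Of 45 transcription factors and cofactors named for apolipoprotein genes, 7 were higher and 12 lower with TGZ, with a median of -0.38. Farthest from 0 were Atf3 (6.94), Fos (4.04), Nr0b2 (-3.56) and Jun (3.53). With RGZ, 1 was higher, Jun (1.28), and 1 lower, Esrrg (-2.36), with a median of 0.09. The 10 genes themselves spanned -0.46 to 1.24 in these 2 comparisons.

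Signals of markers of other cells differed between the arrays, and not alike from list to list. The summed scaled signal of 8 neutrophil markers, 7 of them well above background on all arrays and none below it on every array, was 112 with vehicle, 256 with TGZ, 257 with BSO plus TGZ, 121 with RGZ and 128 with BSO plus RGZ. Csf3r alone gave 100 of that sum with vehicle, 115 in both TGZ groups, 95.3 with RGZ and 93.8 with BSO plus RGZ. It was thus slightly above vehicle with TGZ and slightly below it with RGZ, and the markers of the list did not move alike. With TGZ 4 of the 8 were at least 2-fold higher than with vehicle (S100a8, S100a9, Retnlg and Cxcr2), with BSO plus TGZ 5 (these and Mpo), with RGZ 4 (S100a8, S100a9, Retnlg and Mpo) and with BSO plus RGZ 4 (S100a8, S100a9, Retnlg and Cxcr2). The medians of the list were 2.18, 2.34, 0.88 and 0.84 (log2). S100a8, a calcium-binding protein abundant in neutrophils, was higher by 4.22 with TGZ and by 1.72 with RGZ. S100a8, S100a9 and Retnlg were therefore high in all 4 treated groups, the TGZ groups above the RGZ groups. The sum of the 6 hepatocyte markers was 5284, 6606, 5774, 4669 and 4651 in the order vehicle, TGZ, BSO plus TGZ, RGZ and BSO plus RGZ, and before scaling 975070, 934711, 980629, 973261 and 889125. The order of the scaled sums is thus not that of the unscaled ones, and Alb, which alone gave 1849 to 2595 of the scaled sum, was brighter than Apoa2. The medians of the hepatocyte list against vehicle were 0.25, 0.08, -0.26 and -0.29, and Tat alone was past 2-fold, higher in both TGZ groups. The sum of 8 Kupffer cell and macrophage markers ran from 50.4 to 64.7, that of 7 sinusoidal endothelial markers from 42.0 to 69.0, that of 7 stellate cell markers from 92.0 to 132, and that of 5 lymphocyte markers, with Cd79a below background, from 15.6 to 19.4. The sum of 5 cholangiocyte markers, with Epcam and Krt7 below background, ran from 4.25 to 13.3, and that of the 5 enterocyte markers, nearly all of it Fabp2, from 72.9 to 94.1. The part of other cells in the differences of Apoa4, Apoa5 and Apoa1 was not tested.

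Apoa4 was the 1 gene of the 10 past 2-fold against vehicle, and the genes nearest to it were sought over its 4 differences from vehicle, as the Euclidean distance in log2 units. Among 13912 gene symbols well above background on all arrays, the nearest were Olfr1368 (distance 0.15), Zbtb20 (0.16), Dnajb5 (0.18), Bach1 (0.18) and A330076C08Rik (0.18). The differences of Zbtb20 were 1.24 with TGZ, 0.91 with BSO plus TGZ, -0.11 with RGZ and -0.14 with BSO plus RGZ, beside 1.24, 0.88, -0.19 and -0.01 for Apoa4. The 4 differences share the vehicle array.

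**Figure D5:**
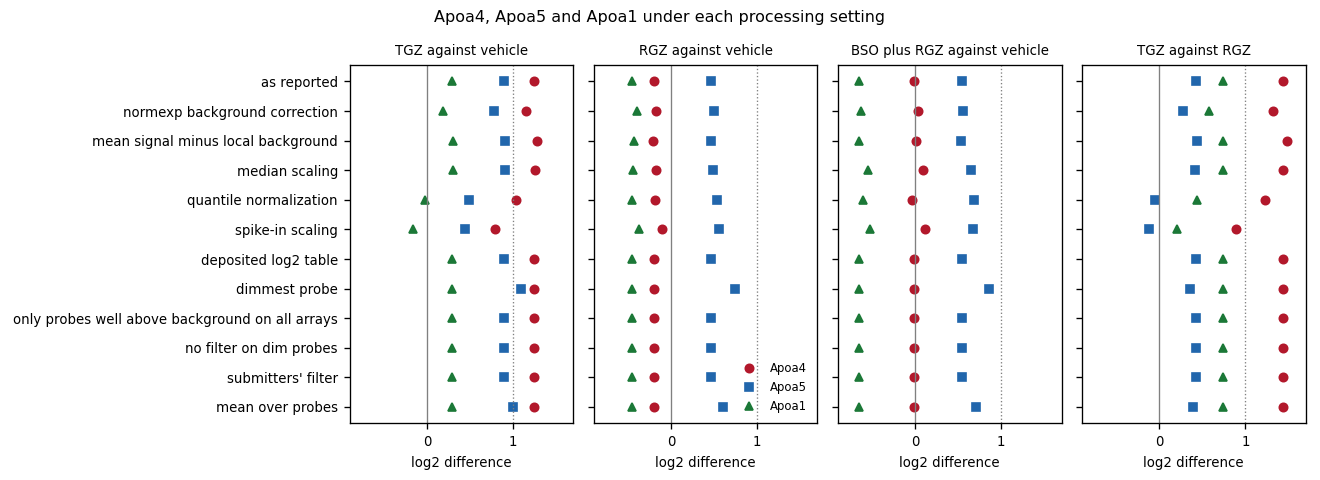
Log2 difference of Apoa4 (circles), Apoa5 (squares) and Apoa1 (triangles) as reported and under 11 other processing settings, in 4 comparisons; the dotted line marks 2-fold. Apoa4 in TGZ against vehicle lies between 0.79 (spike-in scaling) and 1.27, Apoa5 in RGZ against vehicle between 0.46 and 0.74, and Apoa1 in BSO plus RGZ against vehicle between -0.66 and -0.53.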

How the data were processed

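RNA of 6 livers made up each group's single pool, extracted with an RNeasy kit and labelled with the Low Input Quick Amp kit per the labels' protocols. The deposited array files give spot intensity from Agilent Feature Extraction 12.0.3.1 (mm9 positions) per the file headers. In the deposited value table the authors' log2 values equal log2 of that signal plus a constant per array (SD of the offset at most 0.0026), with column medians of 4.03, 4.02, 4.08, 4.01 and 3.92 in the order vehicle, TGZ, BSO plus TGZ, RGZ and BSO plus RGZ. No source used here names the software behind that constant.

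Spots of a probe were averaged without outlier spots, log2 values taken and the array's 75th percentile of non-control probes subtracted (Python 3.11.15, numpy 2.4.6, pandas 2.3.3). A gene took its probe with the highest mean. A gene not well above background on 1 array was compared with the lowest signal well above background there, or its own if higher, and is a bound; a gene dim on both arrays had no value. Genes at least 2-fold different were counted among all genes with a value. The 12 alternatives included normexp correction (limma 3.58.1, R 4.3.3, offset 50), other scalings, probes and filters. The counting code was run on simulated data with known changes past the cutoff. That run does not show how reliable the counts of these arrays are.

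With 1 array per group nothing was tested. The 10 genes and all lists were chosen with earlier results of these data known. By the rule for named genes, all 10 members and all their probes are described, with up to 4 genes of a context list farthest from 0, any gene that a count of 5 or fewer refers to, and the 5 genes nearest to a member past 2-fold against vehicle. Some genes of the receptor and erythroid lists are not reported here. Promoter sequences, gene order and synonyms are from RefSeq (GRCm38.p6).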

Additional observations from a re-analysis of the deposited data

How the results depend on the processing

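The 8 counts of genes past 2-fold were recomputed under 12 alternatives, and 88 of the 96 values equalled those reported. Under spike-in scaling the count was 0 in place of 1 in TGZ against vehicle and in TGZ against RGZ, since Apoa4 was at 0.79 and 0.90 (log2). Of all genes on that scale, 1210 were at least 2-fold higher and 4239 lower in TGZ against vehicle. In TGZ against RGZ these were 971 and 4545. With the dimmest probe of each gene the count was 2 in TGZ against vehicle, Apoa4 and Apoa5. Of all genes, 2219 were then higher and 2037 lower. At 1.5-fold the count was 2 in TGZ against vehicle and in BSO plus TGZ against vehicle (Apoa4 and Apoa5 in each). It was 1 in BSO plus RGZ against vehicle (Apoa1). It was 2 in TGZ against RGZ and in BSO plus TGZ against BSO plus RGZ (Apoa1 and Apoa4 in each). In that order, 7964 of 21210, 6655 of 21418, 4818 of 21201, 7815 of 21075 and 6640 of 21294 genes with a value passed 1.5-fold. Of 880 values of single genes, 28 moved by more than the interval of measurement error, all under quantile normalization or spike-in scaling and all in TGZ against vehicle or TGZ against RGZ, and no value past 2-fold changed sign. Spike-in scaling moved the median of all genes by 0.26 in BSO plus TGZ against TGZ and by 0.13 in BSO plus RGZ against vehicle. Median scaling moved it by 0.10 in BSO plus RGZ against vehicle and by -0.16 in BSO plus TGZ against BSO plus RGZ.

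Counts over all genes moved more. The 4166 genes past 2-fold in TGZ against vehicle were 2004 after normexp correction and 6890 with no filter on dim probes. In the same order the counts were 3042, 1376 and 5577 for BSO plus TGZ against vehicle, 708, 228 and 2814 for RGZ against vehicle, and 1448, 528 and 3902 for BSO plus RGZ against vehicle. They were 426, 67 and 2633 for BSO plus TGZ against TGZ, 263, 45 and 2481 for BSO plus RGZ against RGZ, 3786, 1775 and 6523 for TGZ against RGZ, and 2896, 1179 and 5673 for BSO plus TGZ against BSO plus RGZ. Signal over background limits Pltp most, and 1 Mttp probe was not usable. No paired analysis was possible because each group is a single pool and the labels give no number that ties pools together.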
